A study of Mus musculus with 4 samples.

Results

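Carbonic anhydrases are zinc enzymes that interconvert carbon dioxide and water with bicarbonate and a proton. The isozymes differ mainly in where they sit: in the cytosol, in mitochondria, on the cell surface or outside the cell. In fat, bicarbonate made by the mitochondrial form feeds carboxylases of lipid synthesis and glyceroneogenesis, and carbonic anhydrase III, encoded by Car3, is known as one of the most abundant proteins of the adipocyte. 8 genes of the family were followed here (Car2, Car3, Car4, Car5b, Car6, Car12, Car13 and Car14), taken by symbol from a table of 55487 genes. The set was chosen by gene symbol with earlier results of these data known, among them the high read count of Car3, so the level of Car3 is given as a description. The other 8 genes of the family in the table (Car1, Car5a, Car7, Car8, Car9, Car10, Car11 and Car15) are set beside them.

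The libraries hold RNA of adipocytes taken from the perigonadal white fat of male mice kept on a standard diet. There were 2 libraries of the genotype labelled CKO and 2 of control littermates labelled WT. BLIMP1 and macrophages stand in the series title, and Prdm1 is the gene of BLIMP1, but no source used here gives the allele deleted in CKO, the Cre driver, the age of the mice or whether each library is a separate animal. P-values therefore measure only the spread between these libraries.

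Libraries held 24152081 to 26742547 reads. Prdm1 had 152 and 386 reads in CKO replicates 1 and 2, and 514 and 1135 in WT replicates 1 and 2. Its log2 change was -1.79 (SE 0.59), with an adjusted p of 0.459 in limma. WT replicate 2 stood apart: it had 7561 reads of Adipoq, the adiponectin gene, against 43436 to 71437 in the other libraries, and 31880 reads of the macrophage gene Adgre1 against 1384 to 8071. The preparation is labelled adipocytes, and all 10 adipocyte markers were read in it, but so were all 10 macrophage and all 8 endothelial markers. In such bulk RNA, fewer cells of a type and less RNA per cell cannot be told apart. Prdm1 reads had the order of libraries of Adgre1, rising from CKO replicate 1 through CKO replicate 2 and WT replicate 1 to WT replicate 2. The part of macrophage RNA in the Prdm1 values was not tested.

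The coding sequence shows what the members share. Each active carbonic anhydrase holds its zinc ion with 3 histidines, the first pair of which lie close together, and the stretch around that pair is shown for the 8 members and for the carbonic anhydrase-related genes Car8, Car10 and Car11, whose products are known to lack the activity. Histidine codons at the pair's places are in capitals, and sequences are from GENCODE M21 transcripts, 5′ to 3′.
Car2: cagtttCACtttCACtggggc
Car3: caattcCATcttCACtggggc
Car4: cagttgCACctgCACtggtca
Car5b: cagtttCATtttCATtgggga
Car6: gcctttCACtttCACtggggg
Car12: cagctgCACttgCACtggggg
Car13: cagttcCATttgCACtggggg
Car14: cagctcCACctgCACtggggt
Car8: gaagttagatttCACtgggga
Car10: gaaatccggctaCACtttggg
Car11: gaactgcgcctgctatttgga
All 8 members had histidine codons at all 3 places (codons 94, 96 and 119 in Car3), as did 13 of the 16 family genes. Car8 had 2 of the 3, Car10 had 1 and Car11 had 0.

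Car3 differs from the other members in its active site. Carbonic anhydrase III is known for low activity, with a bulky phenylalanine in the pocket where the other isozymes carry leucine. The codon at that place is in capitals below, with Car2, the cytosolic isozyme of high activity, and the mitochondrial Car5b for comparison.
Car3: tatcacggctccTTCaccacg
Car2: taccctggctctCTGaccact
Car5b: tactctgggtctCTCactacg
The codon (197 in Car3) was one for phenylalanine in Car3 and for leucine in the other 7 members. Of the 16 family genes, 14 had leucine there.

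Car3 was by far the most abundant member. It lies on chromosome 3 of GRCm38 (14863512 to 14872523, plus strand) and encodes a cytosolic enzyme. It had 853359 reads in CKO replicate 1, 529078 in CKO replicate 2, 432705 in WT replicate 1 and 99902 in WT replicate 2. Both CKO values lay above both WT values, but CKO replicate 2 and WT replicate 1 were close and WT replicate 2 was far below. These reads were 3.38% of the library in CKO replicate 1 (95% exact binomial interval 3.37 to 3.39%) and 1.98% in CKO replicate 2 (1.97 to 1.98%). In WT replicate 1 they were 1.79% (1.79 to 1.80%), and in WT replicate 2 0.382% (0.380 to 0.384%). The intervals cover counting error only. By read count Car3 ranked 1 in both CKO libraries, 2 in WT replicate 1 and 19 in WT replicate 2. Per length of exon it ranked 3 in both CKO libraries and in WT replicate 1, and 28 in WT replicate 2. Of all reads on the 16 family genes, 96.0 to 97.9% were Car3 reads.

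**Figure D1:**
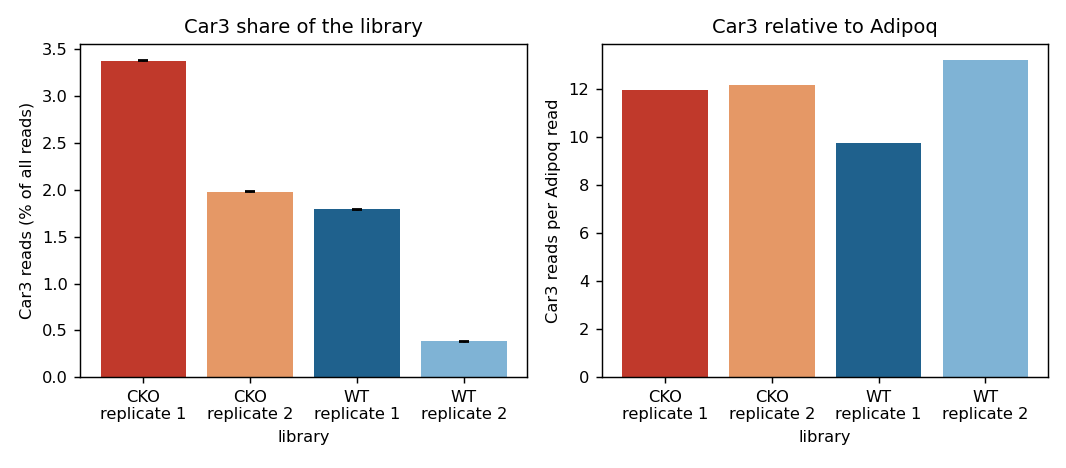
Car3 reads as a percentage of all reads in each library (left, bars with 95% exact binomial intervals) and Car3 reads per read of Adipoq in the same library (right, no error bar since each bar is 1 library). The share falls from 3.38% in CKO replicate 1 to 0.382% in WT replicate 2, while the ratio to Adipoq stays between 9.74 and 13.2.

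Against the adipocyte hormone gene Adipoq, Car3 was nearly level. Car3 reads per Adipoq read were 11.9 and 12.2 in CKO replicates 1 and 2 and 9.74 and 13.2 in WT replicates 1 and 2. The highest of these was 1.36 times the lowest, whereas Car3 reads themselves spanned 8.54-fold and Adipoq reads 9.45-fold. The WT libraries held both the lowest and the highest ratio, so the groups overlapped once Car3 was expressed relative to Adipoq. This overlap is shown for Adipoq only, since ratios to the other adipocyte markers were not taken. The markers did not move alike, with log2 changes from -1.23 (Lep) to 2.80 (Cfd), so another marker could give another reading. Of the 10 adipocyte markers, 9 had a log2 change above 0 (median 1.19), and their summed scaled reads were 1365840 and 870782 in CKO replicates 1 and 2 and 766287 and 236335 in WT replicates 1 and 2. Their part in the Car3 values beyond the ratio to Adipoq was not tested. Skeletal muscle is the other tissue known for abundant Car3. Its 8 markers summed to 416 to 1787 scaled reads per library, most of them from the actin gene Acta1 (297 to 1631 scaled reads). The muscle creatine kinase gene Ckm had 0 to 6 reads and the fast myosin gene Myh4 0 to 4.

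The log2 change of Car3, as CKO minus WT of log2(scaled reads + 1), was 1.56 (SE 1.79), with an adjusted p of 0.697 in limma. Scaled reads, each library divided by its size factor, averaged 667056 ± 265615 for CKO and 277175 ± 243434 for WT (SD, n = 2). The SE was 0.82 when limma's variance was not allowed to follow expression level, and the adjusted p was then 0.498. Without WT replicate 2 the change was 0.51, and without WT replicate 1 it was 2.61.

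Of the 8 members, 7 passed the filter on low values (deposited log2 values averaging 3 or more), and Car14 did not. None of the 7 passed an adjusted p of 0.05 in limma, as was so for all 16871 genes tested (0% higher and 0% lower). At an unadjusted p under 0.05 limma called 10.6% of all genes tested, 3.35% higher and 7.26% lower. It called 1 of the 7 members higher, Car2, and 0 lower. Weights from voom gave 0 of 7 adjusted and 1 of 7 unadjusted. The log2 change was above 0 for 5 (Car2, Car3, Car4, Car5b and Car13) and below 0 for 2 (Car6 and Car12), against 51.1% and 48.9% of all genes tested. Their median was 1.04, beside 0.015 over all genes tested. The groups did not overlap for 6 members: CKO was above WT in Car2, Car3, Car4 and Car5b, which was so for 23.9% of genes tested, and below WT in Car6 and Car12, which was so for 26.8%. With any 1 library left out, 5 members were still above 0 and 2 below.

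**Figure D2:**
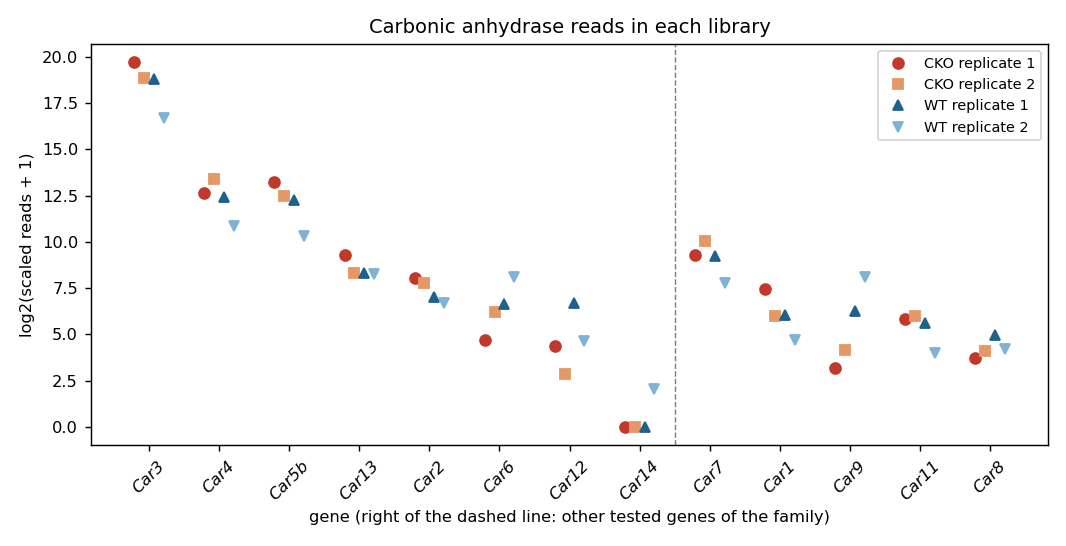
log2(scaled reads + 1) of each carbonic anhydrase gene in the 4 libraries, 1 point per library, with the members left of the dashed line and the other tested genes of the family to its right. Car3 lies at 16.68 to 19.71, above every other gene shown, and WT replicate 2 is the lowest library for Car3, Car4 and Car5b and the highest for Car6.

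Levels between genes were compared per length of exon, as TPM, reads per length of exon scaled to the same sum in each library. The mean over the 4 libraries was 17967 TPM for Car3, 344 for Car4, 91.8 for Car5b, 18.4 for Car13, 8.04 for Car2, 6.75 for Car6, 0.547 for Car12 and 0.031 for Car14. Car3 ranged from 3660 to 31880 TPM and did not overlap Car4, at 94.8 to 632. Car13 (13.2 to 29.2 TPM) did not overlap Car2 (4.25 to 11.4). Car4 was above Car5b, and Car5b above Car13, in all 4 libraries, although the ranges over libraries overlapped in both cases. Car2 was above Car6 in 2 of 4 libraries, so these neighbours in the order were not separated.

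Car5b, which encodes a mitochondrial isozyme, followed Car3 closely. It lies on chromosome X (163976822 to 164027997, minus strand). It had 9618 and 6202 reads in CKO replicates 1 and 2, and 4669 and 1232 in WT replicates 1 and 2. Both CKO values were above both WT values, with WT replicate 2 lowest. Its log2 change was 1.55 (SE 0.70), with an adjusted p of 0.459 in limma. It was 0.60 without WT replicate 2. Without WT replicate 1 it was 2.50 and passed at an adjusted p of 0.0442 in limma, in a fit whose lone WT library was assumed to vary like the CKO libraries and in which 837 genes were higher and 938 lower. Relative to Adipoq, Car5b spanned 1.55-fold over the libraries and its groups overlapped. It had 0.135 and 0.143 reads per Adipoq read in CKO replicates 1 and 2, and 0.105 and 0.163 in WT replicates 1 and 2.

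Among 8917 genes with deposited log2 values averaging 8 or more, the 5 whose profile over the 4 libraries lay nearest to that of Car3 were Adig, Boc, Car5b, Acaca and Enpp2. The measure was the Euclidean distance between log2 values centred on each gene's mean, which was 0.115 for Adig and 0.149 for Enpp2. Adig encodes adipogenin, a small protein of fat cells, Boc a cell surface receptor of hedgehog signalling, and Enpp2 autotaxin, a secreted enzyme that makes lysophosphatidic acid. Acaca encodes acetyl-CoA carboxylase, which consumes bicarbonate. Adipoq stood at rank 36 (0.324), Car4 at 734 (1.19), Car7 at 844 (1.25) and Car13 at 1952 (1.78). With 4 libraries, of which WT replicate 2 lies far from the rest, this likeness is a description.

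The bases before the annotated start of Car5b are shown because it is the member whose profile was nearest to Car3. RefSeq's table of promoters on GRCm38.p6 held 5 of the 8 members, and Car2, Car3 and Car13 were not in it. The 250 bases before the RefSeq start of Car5b, chrX:164028011-164028260 on the minus strand, hold the letters GGGCGG (a GC box) at -113 and -102 and CCAAT at -94, all in capitals.
Car5b: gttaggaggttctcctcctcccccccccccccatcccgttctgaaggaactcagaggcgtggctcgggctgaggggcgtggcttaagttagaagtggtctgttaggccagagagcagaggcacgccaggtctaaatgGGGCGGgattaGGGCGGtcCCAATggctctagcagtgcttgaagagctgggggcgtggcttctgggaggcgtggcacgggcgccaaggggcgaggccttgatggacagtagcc
On either strand GGGCGG stood in 32.7% and CCAAT in 33.8% of 32851 RefSeq windows of the same length. No match to a TATA box (TATAAA, searched on the gene's strand only), an E-box (CACGTG), the hypoxia response core (ACGTGC), a C/EBP site (TTGCGCAA) or a direct repeat of nuclear receptor half-sites was found in the Car5b window, and Car4 and Car14 held none of the 7 motifs in theirs.

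Car4 encodes an isozyme tethered to the outer face of the plasma membrane and known from capillary endothelium as well as other cells. It lies on chromosome 11 (84957786 to 84966044, plus strand). Reads were 6431 and 11848 in CKO replicates 1 and 2, and 5244 and 1775 in WT replicates 1 and 2. CKO replicate 2 was highest, and both CKO values were above both WT values. For Car4 the log2 change was 1.38 (SE 0.60), with an adjusted p of 0.459 in limma. Without WT replicate 2 it was 0.61. Without WT replicate 1 it was 2.15, with an adjusted p of 0.0467 in limma and the same assumption about the lone WT library as for Car5b. Relative to Adipoq, Car4 was not level: it had 0.0900 and 0.273 reads per Adipoq read in CKO replicates 1 and 2 and 0.118 and 0.235 in WT replicates 1 and 2, a span of 3.03-fold.

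The summed endothelial markers had the order of libraries of Car4, as did each marker but Esam. Of 8 tested, 8 had a log2 change above 0 (median 1.22) and 0 passed the adjusted threshold in limma, and their summed scaled reads were 65130 and 98984 in CKO replicates 1 and 2 and 56360 and 20408 in WT replicates 1 and 2. This order was not particular to endothelium. The summed red blood cell markers had it too, as did Myh11, Rgs5 and Pdgfrb of the smooth muscle and pericyte list. Acta2, Tagln and Cnn1 of that list did not, nor did its summed scaled reads. That sum was 11270 and 16982 in CKO replicates 1 and 2 and 14075 and 5541 in WT replicates 1 and 2. The part of these cell types in the Car4 values was not tested.

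Car2 and Car13 are cytosolic isozymes whose genes flank Car3 and Car1 on chromosome 3. Car13 starts the cluster at 14641727 and Car2 closes it at 14900770. Car2, the widely expressed isozyme of red blood cells, kidney and bone-resorbing cells, had 259 and 245 reads in CKO replicates 1 and 2 and 126 and 98 in WT replicates 1 and 2. The CKO libraries were close to each other and above both WT libraries. Scaled reads averaged 241 ± 26.5 over CKO and 117 ± 19.7 over WT libraries (SD, n = 2). A log2 change of 1.04 (SE 0.34) had an unadjusted p of 0.0300 and an adjusted p of 0.459 in limma, and ranged from 0.87 to 1.21 with each library left out in turn. Relative to Adipoq the groups overlapped: Car2 had 0.00363 and 0.00564 reads per Adipoq read in CKO replicates 1 and 2 and 0.00284 and 0.0130 in WT replicates 1 and 2, a span of 4.57-fold with WT replicate 2 highest.

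All 6 red blood cell markers had a log2 change above 0 (median 2.19), as Car2 had, and 0 passed the adjusted threshold in limma. Their summed scaled reads were 18971 and 30255 in CKO and 9098 and 3263 in WT. The sum was thus highest in CKO replicate 2. Car2 was highest in CKO replicate 1 (259 scaled reads, beside 222 in CKO replicate 2), as was Slc4a1 of the list. Car1, the other isozyme known from red cells, had 171 and 70 reads in CKO and 63 and 24 in WT. Its log2 change was 1.34 (SE 0.74), with an adjusted p of 0.483 in limma, and its groups overlapped in scaled reads. The part of red cells in the Car2 values was not tested.

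Car13 had 628 and 350 reads in CKO replicates 1 and 2 and 309 and 290 in WT replicates 1 and 2. Only CKO replicate 1 was high, and the groups overlapped in scaled reads (629 and 317 in CKO, 321 and 305 in WT). Its log2 change was 0.51 (SE 0.41), with an adjusted p of 0.583 in limma, and 0.019 without CKO replicate 1. Car13 varied least of the 7 members that passed the filter, at 2.06-fold between its highest and lowest library in scaled reads, beside 2.52-fold for Car2 and 8.14-fold for Car3 in the same cluster. Relative to Adipoq, Car13 spanned 5.51-fold, again with WT replicate 2 highest (0.0384 reads per Adipoq read).

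**Figure D3:**
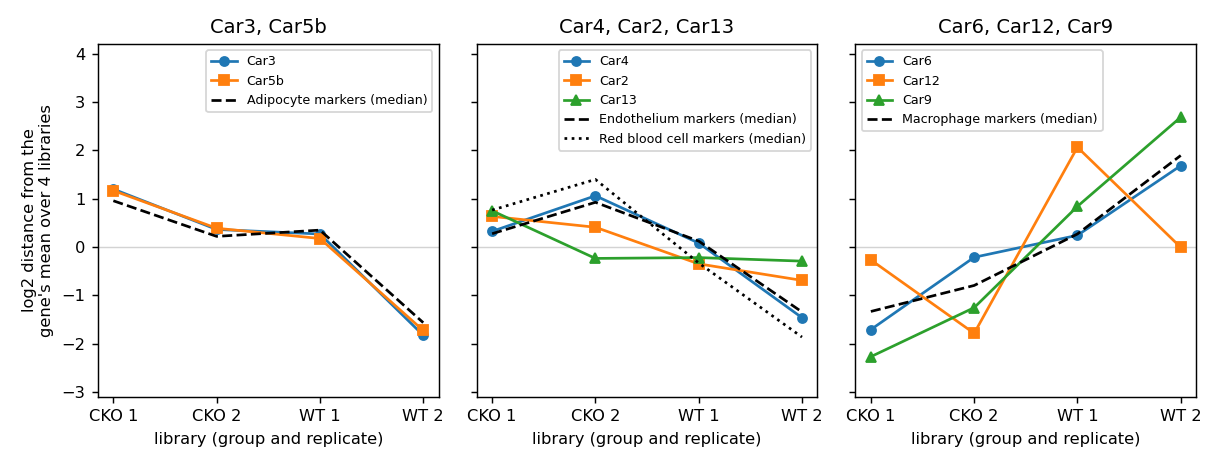
Distance on the log2 scale of each gene from its own mean over the 4 libraries, with the median of a marker list as a black line; lines only join the 4 libraries of 1 gene. Car3 and Car5b run from 1.20 and 1.17 in CKO replicate 1 to -1.83 and -1.73 in WT replicate 2 along with the adipocyte marker median. Car4 peaks in CKO replicate 2 with the endothelial and red blood cell medians, whereas Car2 (0.63) and Car13 (0.75) peak in CKO replicate 1. Car6 and Car9 are highest in WT replicate 2 with the macrophage marker median. Car12 peaks in WT replicate 1 (2.06) and is near its mean in WT replicate 2 (-0.008).

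Car6 and Car12 had values in the opposite direction. Car6 encodes the secreted isozyme, best known from saliva, on chromosome 4 (150187015 to 150201332, minus strand). It had 25 and 80 reads in CKO replicates 1 and 2 and 96 and 259 in WT replicates 1 and 2, so that CKO replicate 1 was lowest and WT replicate 2 highest. Both CKO values lay below both WT values, with CKO replicate 2 and WT replicate 1 close (72.5 and 99.7 scaled reads). The log2 change was -1.92 (SE 0.76), with an adjusted p of 0.459 in limma, and it was -1.18 without CKO replicate 1, -1.20 without WT replicate 2 and -2.67 without CKO replicate 2.

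Car12 encodes a transmembrane isozyme with its active site outside the cell, on chromosome 9 (66713686 to 66766845, plus strand). Scaled reads were 20.0 and 6.34 in CKO replicates 1 and 2 and 105 and 24.2 in WT replicates 1 and 2. WT replicate 1 alone was high, and WT replicate 2 was just above CKO replicate 1. For Car12 the log2 change was -2.05 (SE 0.94), with an adjusted p of 0.459 in limma. It was -1.02 without WT replicate 1 and -3.09 without WT replicate 2. Car14, another transmembrane isozyme, had 3 reads in WT replicate 2 and 0 in the other libraries. These 0 counts allow up to 3 reads each, so no difference was detectable at this depth. Car14 overlaps Aph1a, which runs the other way, and no source used here says whether reads were counted by strand.

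The summed macrophage markers had the order of libraries of Car6, lowest in CKO replicate 1 and highest in WT replicate 2, while Mertk, Mrc1 and Cd163 of the list did not. Of 10 tested, 9 had a log2 change below 0 (median -2.20) and 0 passed the adjusted threshold in limma. Their summed scaled reads were 36388 and 78237 in CKO replicates 1 and 2 and 157770 and 450374 in WT replicates 1 and 2. Genes of other lists had this order too. Of 8 markers of lipid-associated macrophages, each but Lpl had it. Col1a1 and Lum of the fibroblast and preadipocyte list had it, while the other genes of that list and its summed scaled reads did not. The part of these cell types in the Car6 values was not tested. Of 8 markers of the epididymis, which this depot surrounds, Lcn5, Spag11a, Defb20 and Cst11 had 0 reads in all libraries, and the 8 together summed to 2.10 to 11.8 scaled reads per library.

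Car9, a transmembrane isozyme known for induction by low oxygen, had the log2 change of largest size among the 12 family genes tested. It had 8 and 19 reads in CKO replicates 1 and 2 and 74 and 265 in WT replicates 1 and 2. Both CKO values were far below both WT values. Its log2 change was -3.53 (SE 0.80), with an unadjusted p of 0.00710 and an adjusted p of 0.459 in limma. It was -2.60 without WT replicate 2 and -4.45 without WT replicate 1. Car9 overlaps an antisense gene, Gm12454.

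The letters ACGTGC, which hold the core of the hypoxia response element, occur on either strand before the RefSeq starts of both Car6 and Car9, whose reads were highest in WT replicate 2, and are shown in windows of 30 bases with the match in capitals.
Car6: gaggaggtgagGCACGTGCacaggcaccaa
Car9: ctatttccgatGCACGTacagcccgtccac
These lie at chr4:150201267-150201296 (minus strand) and chr4:43506996-43507025 (plus strand) of GRCm38.p6. Matches start at -150 and -148 in Car6, where they overlap each other and the E-box CACGTG at -149, and at -19 in Car9. The GENCODE M21 models of both genes start farther upstream, so these windows lie inside their gene bodies. ACGTGC stood in 4.92% and CACGTG in 6.02% of the 32851 windows. A match is a description of the letters.

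Of the other family genes, Car7 was the most abundant, at a mean of 19.0 TPM, near Car13. This cytosolic isozyme, best known from neurons, had 635 and 1154 reads in CKO replicates 1 and 2 and 580 and 209 in WT replicates 1 and 2. Both CKO values lay above both WT values, with CKO replicate 2 highest as for Car4. Its log2 change was 1.16 (SE 0.57; adjusted p 0.463 in limma), and 0.44 without WT replicate 2. The related genes Car11 and Car8 had log2 changes of 1.09 (SE 0.69) and -0.69 (SE 0.55), with adjusted p of 0.516 and 0.583 in limma, at 14 to 69 and 12 to 29 reads per library. Car5a, the liver form of the mitochondrial enzyme, had 0 to 2 reads per library, Car10 0 to 1 and Car15 0 to 4.

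**Figure D4:**
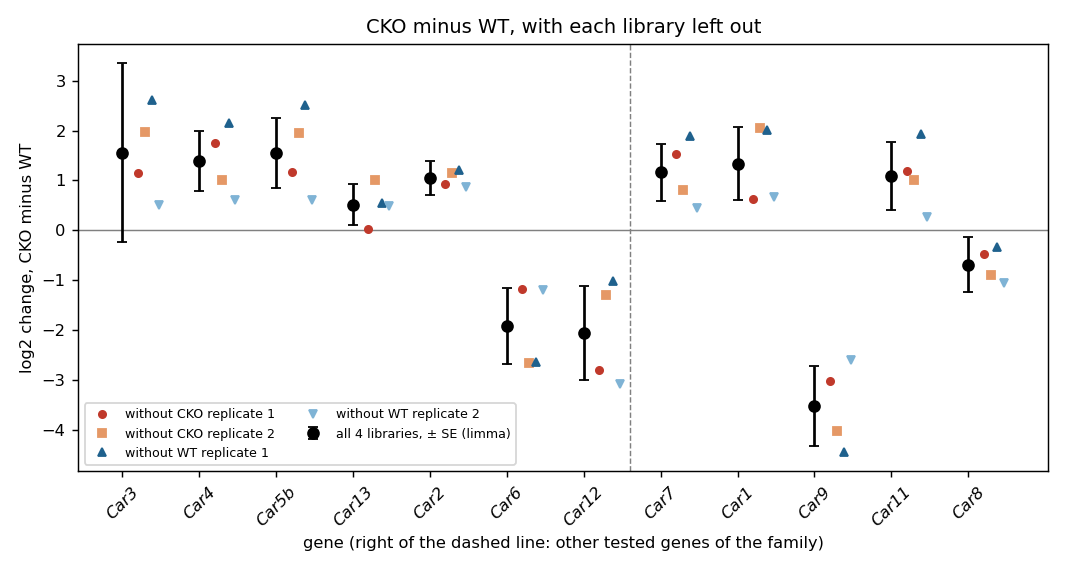
log2 change (CKO minus WT) of the 7 members tested and of the 5 other tested genes of the family; black points are the fit to all 4 libraries with the SE from limma, and coloured points are the fits with 1 library left out. All points keep their sign for each gene, and leaving out WT replicate 1 moves Car3 and Car5b to 2.61 and 2.50 while leaving out WT replicate 2 moves them to 0.51 and 0.60.

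Enzymes that fix bicarbonate had values in the direction of Car3 and Car5b. All 8 tested of 9 listed had a log2 change above 0 (median 1.16), beside 51.1% of all genes tested, and 0 passed the adjusted threshold in limma. Pcx, the mitochondrial pyruvate carboxylase that draws on bicarbonate in glyceroneogenesis, had 57181 and 27498 reads in CKO replicates 1 and 2 and 23623 and 6004 in WT replicates 1 and 2, a log2 change of 1.60 (SE 0.83; adjusted p 0.473 in limma). WT replicate 2 was lowest, as for Car3. Acacb, the acetyl-CoA carboxylase of the mitochondrial surface, had the largest change of the list, 2.15 (SE 0.80; adjusted p 0.459 in limma). Cad, which begins pyrimidine synthesis, had the smallest, 0.15. For 2 of the 8, Acacb and Pcx, the CKO libraries were both above the WT libraries, near the share among all genes tested (23.9%). The adipocyte markers had a median change of 1.19, close to that of this list. Relative to each gene's mean, the list's median log2 values were 1.06 and 0.07 in CKO replicates 1 and 2 and 0.17 and -1.33 in WT replicates 1 and 2, beside 0.96, 0.22, 0.35 and -1.57 for the adipocyte markers. The part of adipocyte RNA in these values was not tested.

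Bicarbonate transporters showed no common direction. Of 10 tested of 15 listed, 4 had a log2 change above 0 and 6 below (median -0.48), and 0 passed in limma. Slc4a1, the anion exchanger of red blood cells, which also stands in the red cell list, was at 2.58 (SE 0.67). Slc4a4, an electrogenic sodium bicarbonate cotransporter, had 643 and 231 reads in CKO and 207 and 47 in WT, a log2 change of 1.82 (SE 0.90; adjusted p 0.464 in limma), and its groups overlapped in scaled reads. Slc4a5 and Slc26a9 were at -2.52 and -2.50, with at most 37 reads in a library.

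Of the 8 proton and lactate exporters tested of 11 listed, 2 were above 0 and 6 below (median -0.062), and 0 passed in limma. The most abundant, Bsg, which escorts lactate transporters to the membrane, was at 0.12 (SE 0.30), and Hvcn1, the voltage-gated proton channel of phagocytes, at -1.72 (SE 0.41). Emb, the other escort of lactate transporters, was at -2.31 (SE 0.56). Among sensors of acid or bicarbonate, Gpr4, an endothelial proton receptor, was at 1.39 (SE 0.61), while Gpr65, a proton receptor of leukocytes, was at -2.35 (SE 0.67) and Adcy10, the bicarbonate-sensitive adenylyl cyclase, was at 0.27. None of these 3 passed the adjusted threshold in limma (adjusted p 0.459 for Gpr4 and Gpr65 and 0.926 for Adcy10).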

How the data were processed

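The authors deposited 1 table of log2 values per gene and library, which its name calls normalised. STAR 2.7.5c, FastQC and GRCm38.p6 are named in the submitters' processing notes; the read counter, its annotation and its use of strand are not stated there. Raising 2 to each deposited log2 value and taking away 1 gave whole numbers (tolerance 0.01) for 100% of the values, so the table holds log2(reads + 1), unscaled. Reads were recovered by rounding and scaled by the median ratio to the geometric mean over 19847 genes (size factors 0.951 to 1.10). With a pseudocount of 1, the 16871 genes whose deposited log2 values averaged 3 or more were fitted on group in limma 3.58.1 (R 4.3.3; eBayes with a trend, two-sided; Benjamini-Hochberg over all genes tested; 2 residual and 2.92 prior degrees of freedom). The fold change of low genes is understated on this scale. The script was tested on simulated data with a set spread between libraries, the same in both groups. Over the genes tested here the median SD was 0.23 for CKO and 0.39 for WT. The simulated data therefore do not show what changes could be found here. An exact permutation test of 2 against 2 libraries cannot go below p = 0.333, so none was run.

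TPM used the union of exons in GENCODE M21, which matched 99.3% of identifiers. Members and gene lists were chosen with earlier results of these data known, and motifs after the family's promoters had been seen. The named genes were the 8 members, the other 8 of the family, the 5 nearest to Car3 and those with the 2 largest and 2 smallest log2 changes of each pathway list; single marker genes were named after their values were seen. 1 gene that this rule names is not reported here. Other settings were no filter, a minimum of 6, other scalings, a pseudocount of 10, no trend, a robust fit, library weights, voom weights and each library left out. Replicate numbers follow record order and pair no samples.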

Additional observations from a re-analysis of the deposited data

How the results depend on the processing

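Of 97 values of the 7 members tested under 14 other settings, 95 kept their sign and side of the threshold, 2 passed it and 0 changed sign. Those 2 were Car4 and Car5b without WT replicate 1; with each library left out they ranged from 0.61 to 2.15 and from 0.60 to 2.50. Genes passing the adjusted threshold in limma numbered 0 in either direction in each setting run except that without WT replicate 1, so with each library left out 0 to 837 passed as higher and 0 to 938 as lower. Where 1 library was left out, the lone library was assumed to vary like the others. With a minimum of 6, Car12 was not tested and 1 member had a log2 change below 0. At an unadjusted p under 0.05 in limma, 566 genes were higher and 1224 lower; 988 were higher without a filter, 333 with a minimum of 6 and 859 unscaled, and with each library left out 122 to 2875 were higher and 212 to 2876 lower. The order of the members by TPM was the same with the length of the longest transcript. The few reads of Car12 and Car14 limit their precision. No paired analysis was possible because the labels give no replicate numbers that the groups share.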
